A study of Homo sapiens with 12 samples.

Results

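The genes described here encode 10 enzymes that make asparagine, serine, glycine, cysteine and proline: ASNS, PHGDH, PSAT1, PSPH, SHMT2, CBS, CTH, ALDH18A1, PYCR1 and PYCR3. They were taken by name, and all probe sets (groups of short probes for 1 transcript) that carry only the symbol of 1 of these genes were used. This gave 20 of the 54675 probe sets of the array and 10 of the 19775 genes with a symbol of their own. A further probe set names PHGDH together with other genes and was left out. Of the 20 probe sets, 18 were bright enough to be tested, at least 1 for every gene. The exceptions were 241082_at of ASNS, with signals of 2.58 to 44.9 over all arrays, and 244819_x_at of PSPH, with 29.6 to 97.4. Probe set 240517_at of CBS passed the brightness filter only through its means in the mutant line.

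The study measured total RNA of stable lines of HEK, a human embryonic kidney cell line, on 12 Affymetrix arrays. Each line carries a TRPM7 transgene, a membrane channel fused to a kinase, that tetracycline switches on. The 4 groups have 3 arrays each and are the WT line (wild-type channel) with tetracycline, the WT line untreated, the mutant line (channel without its whole kinase domain) with tetracycline and the mutant line untreated. The series design names the mutant as nonfunctional and uses that line as the control for the inducer. Tetracycline was given for 72 hours, in an amount stated as 1 ug without a volume, and all cells grew with 5 ug/mL of the selection antibiotic blasticidin. Whether a line is 1 clone, and whether separate cultures gave the 3 arrays of each group, is not given in the sources used here. The p-values therefore measure only the spread between these samples, which may be technical.

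The enzymes form short branches off central metabolism. ASNS amidates aspartate to asparagine. PHGDH, PSAT1 and PSPH convert a glycolytic intermediate to serine in consecutive steps, and SHMT2 splits serine in mitochondria to glycine and a one-carbon unit. CBS and CTH move the sulfur of homocysteine onto serine to make cysteine. ALDH18A1 reduces glutamate to the precursor of proline, and the reductases PYCR1, in mitochondria, and PYCR3, in the cytosol, finish proline. In many mammalian cells the transcription factor ATF4 raises several of these genes when amino acids are short or the endoplasmic reticulum is stressed, and the ASNS promoter is a classic example of this control.

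The ASNS promoter is shown because ASNS was the member with a match to the core of the response element bound by ATF4 and C/EBP proteins. The letters searched were TGATGNAA and the reverse complement TTNCATCA, in windows from 250 bases before to 50 bases after the start of each gene in RefSeq's table for GRCh38.p14. The table holds 9 entries for 6 of the members (ASNS, PHGDH, PSAT1, CBS, CTH and ALDH18A1) and none of PSPH, SHMT2, PYCR1 and PYCR3. A match stood in 1 of the 9 entries, against 3.62% of all 35116 promoters, and the other ASNS entry had none. The window with the match lies at chr7:97872359-97872658 on the minus strand, and capitals mark the match, whose first base is at position -68, counted back from the first base of the transcript.
ASNS promoter: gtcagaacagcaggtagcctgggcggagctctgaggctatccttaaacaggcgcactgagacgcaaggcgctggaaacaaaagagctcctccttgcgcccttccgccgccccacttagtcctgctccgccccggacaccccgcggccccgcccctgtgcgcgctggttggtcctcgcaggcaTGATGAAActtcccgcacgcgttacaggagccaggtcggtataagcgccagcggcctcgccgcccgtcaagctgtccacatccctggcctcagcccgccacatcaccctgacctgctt

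The overall signal, equal on every array as deposited, is no check of quality, and 1 of the quality controls examined differed between the lines. Every array had a trimmed mean signal of 500.1 as deposited, so a signal is a share of the array's whole, and fewer expressing cells cannot be told apart from less RNA per cell. The 3′ control probe set of beta-actin exceeded the 5′ one, a sign of RNA degradation, by log2 differences of 0.90 to 1.36 in the WT line with tetracycline and 0.63 to 1.29 untreated, against 0.25 to 0.29 in the mutant line with tetracycline and 0.23 to 0.29 untreated. The same difference for GAPDH was 0.02 to 0.15 and 0.04 to 0.17 in those WT groups, against 0.05 to 0.10 and 0.04 to 0.14 in the mutant groups, so that its ranges overlapped. The median SD per probe set was 0.326 and 0.299 in the WT groups (tetracycline, untreated) and 0.19 and 0.174 in the mutant groups. HEK markers were present, with 9 of 10 above the brightness filter, against 1 of 6 blood, 2 of 8 fibroblast or endothelial and 0 of 6 liver markers. The summed signal of the 8 fibroblast or endothelial markers was 1450 to 1493 in the WT line with tetracycline, against 763 to 1136 untreated, and 908 to 1117 in the mutant line with tetracycline, against 887 to 983 untreated. COL1A1 and PECAM1 were the 2 of these above the filter, and the part of these markers in the results below was not tested. The brightest TRPM7 probe set gave -0.85 ± 0.30 (SE, adjusted p = 0.0643) in the WT line and -0.20 ± 0.30 (adjusted p = 1) in the mutant line, so it does not check the tetracycline labels, and directions rest on the labels as given.

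In the WT line, tetracycline went with higher CTH, ASNS, PHGDH and PSAT1 and with lower PYCR3. CTH rose 3.03-fold and 3.23-fold on its probe sets and ASNS 2.05-fold, while PHGDH rose 1.49-fold and 1 of the PSAT1 probe sets 1.39-fold. PYCR3 fell, by 7.43-fold in the deposited signals, which are dim and of unknown detection in the WT line with tetracycline. No probe set of PSPH, SHMT2, CBS, ALDH18A1 or PYCR1 passed. Changes below are log2 differences, each with its standard error (SE) from limma, 3 arrays against 3, and a probe set passed at an adjusted p under 0.05 over all 29553 probe sets tested.

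Of the 18 tested member probe sets 5 rose and 1 fell in the WT line, where 7.83% of all tested probe sets rose and 9.11% fell. With 1 probe set per gene, the brightest, 3 of 10 members rose and 1 fell, against 9.4% and 8.55% of 13099 tested genes. The median change of the 10 members was 0.26, against 0.03 over all tested genes. The groups did not overlap, with tetracycline higher, for 6 of the 18 probe sets (13.7% of all) and lower for 2 (13% of all). Probe sets of 1 gene share their target and are not separate evidence.

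**Figure D1:**
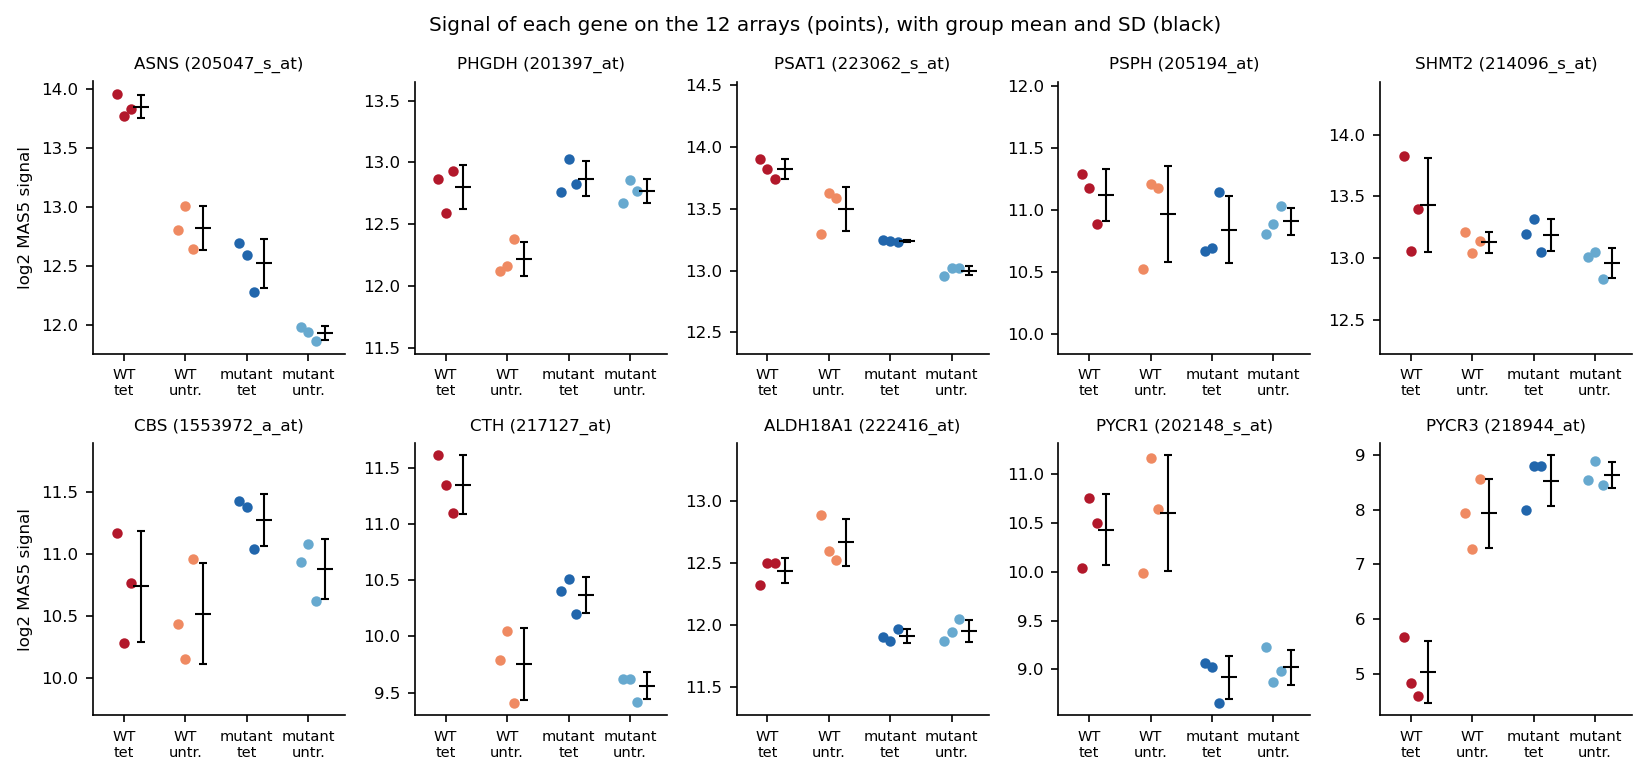
Log2 MAS5 signal (vertical axes, which differ in level between panels) of the brightest tested probe set of each of the 10 genes on every array, in the order WT with tetracycline, WT untreated, mutant with tetracycline, mutant untreated. Points are arrays and the black marks show the group mean and SD (n = 3). ASNS and CTH stand higher with tetracycline in both lines, PYCR3 stands low only on the 3 WT arrays with tetracycline, and PYCR1 stands higher in the WT line with and without tetracycline.

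ASNS, the asparagine synthetase whose promoter is printed above, had signals of 15965, 13982 and 14562 in the WT line with tetracycline, against 7147, 8249 and 6383 untreated. Signals of the mutant line were 6591, 6180 and 4987 with tetracycline, against 4027, 3929 and 3718 untreated. Tetracycline arrays lay above all untreated arrays of their own line in both lines, and the lowest WT array with tetracycline lay above every array of the other groups. The change was 1.04 ± 0.13 (SE, adjusted p = 0.000274) in the WT line, rank 89 of 29553 by p. The mutant change was 0.60 ± 0.13 (adjusted p = 1), rank 5 by p, and did not pass. The WT call held under all 22 alternatives run, with adjusted p from 0.000132 to 0.0263.

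CTH makes cysteine by cleaving cystathionine. Its brighter probe set, 217127_at, read 3131, 2603 and 2190 in the WT line with tetracycline, against 886, 1061 and 680 untreated. Mutant arrays read 1347, 1458 and 1173 with tetracycline, against 789, 788 and 685 untreated. No array with tetracycline overlapped with the untreated arrays in either line. The changes were 1.60 ± 0.18 (adjusted p = 0.000201) in the WT line and 0.81 ± 0.18 (adjusted p = 1) in the mutant line.

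The other CTH probe set, 206085_s_at, read 1432, 1657 and 1230 in the WT line with tetracycline, against 415, 500 and 419 untreated. The mutant line gave 691, 721 and 542 with tetracycline, against 399, 421 and 453 untreated. It gave the same order of groups as the first, with changes of 1.69 ± 0.17 (adjusted p = 0.000123, rank 22 by p) in the WT line and 0.61 ± 0.17 (adjusted p = 1, rank 25 by p) in the mutant line. CBS, which acts just before CTH, gave no such pattern. Its probe set 1553972_a_at read 2310, 1241 and 1748 in the WT line with tetracycline, against 1387, 1139 and 1992 untreated, and in the mutant line 2754, 2660 and 2102, against 1962, 2159 and 1568. The groups overlapped in both lines, and the CBS changes were 0.22 ± 0.23 (adjusted p = 0.551) and 0.40 ± 0.23 (adjusted p = 1). The other CBS probe sets gave 0.12 ± 0.23 and 0.17 ± 0.59 in the WT line, and neither passed.

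PHGDH, the first enzyme of serine synthesis, had signals of 7490, 6181 and 7825 in the WT line with tetracycline, against 4454, 4587 and 5339 untreated. Its mutant signals were 6926, 8372 and 7281, against 6497, 7451 and 6969. The WT groups did not overlap and the mutant groups did. The change was 0.58 ± 0.13 (adjusted p = 0.00675) in the WT line and 0.11 ± 0.13 (adjusted p = 1) in the mutant line. The WT call had an adjusted p of 0.0629, and so was lost, when only the 6 WT arrays entered the fit, and of 0.0874 when replicate 3 of all groups was left out.

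PSAT1, the aminotransferase of the second step, was measured by a pair of probe sets close to the threshold on either side. The brighter, 223062_s_at, read 15241, 14448 and 13639 in the WT line with tetracycline, against 10063, 12693 and 12293 untreated, a change of 0.31 ± 0.10 (adjusted p = 0.0519). For the mutant line the signals were 9731, 9643 and 9592, against 7964, 8307 and 8300, a change of 0.24 ± 0.10 (adjusted p = 1). Neither line's groups overlapped on this probe set.

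The other PSAT1 probe set, 220892_s_at, read 7290, 7056 and 6152 in the WT line with tetracycline, against 4075, 4977 and 5830 untreated, and rose by 0.47 ± 0.14 (adjusted p = 0.0273). Mutant signals were 5614, 5992 and 4948, against 4509, 4484 and 4342, a change of 0.31 ± 0.14 (adjusted p = 1). Its WT call was lost when WT untreated replicate 1 (adjusted p = 0.102) or WT tetracycline replicate 2 (0.0884) was left out. It was also lost with only the WT arrays (0.132), without a variance trend (0.0719) and when replicate 3 of all groups was dropped (0.0513). The brighter PSAT1 probe set passed when WT untreated replicate 2 was left out (adjusted p = 0.0342), with a replicate block (0.0473) and with the stricter brightness filter (0.0377), as did the mean of both probe sets (0.39, adjusted p = 0.0314).

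PSPH, the phosphatase of the last serine step, and SHMT2 did not pass in either line. PSPH probe set 205194_at read 2506, 2317 and 1901 in the WT line with tetracycline, against 1469, 2364 and 2327 untreated, a change of 0.15 ± 0.19 (adjusted p = 0.637). The mutant arrays gave 1634, 1655 and 2278, against 1801, 1900 and 2086, a change of -0.07 ± 0.19 (adjusted p = 1). SHMT2 probe set 214096_s_at read 14556, 8546 and 10843 in the WT line with tetracycline, against 9481, 8422 and 9049 untreated, so that replicates 1 and 3 stood above all untreated arrays and replicate 2 among them. The SHMT2 change was 0.30 ± 0.16 (adjusted p = 0.206) in the WT line, and without WT tetracycline replicate 2 it was 0.49 and passed (adjusted p = 0.0487). SHMT2 in the mutant line read 9409, 10222 and 8489, against 8262, 8487 and 7279, a change of 0.23 ± 0.16 (adjusted p = 1) with groups that touched but did not overlap. The other SHMT2 probe sets gave 0.34 ± 0.16 and 0.32 ± 0.22 in the WT line, and 0.33 ± 0.16 and 0.25 ± 0.22 in the mutant line.

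The proline branch gave no rise in the WT line. PYCR3, the cytosolic reductase, read 51.0, 28.7 and 24.2 in the WT line with tetracycline, against 246, 157 and 375 untreated. PYCR3 in the mutant line read 256, 443 and 443, against 372, 474 and 350. The 3 WT arrays with tetracycline were lower than every other array, and the other groups overlapped. The WT change was -2.89 ± 0.36 (adjusted p = 0.00028) and the mutant change -0.10 ± 0.36 (adjusted p = 1). The WT mean with tetracycline, 5.04 ± 0.56 on the log2 scale (SD, n = 3), lay below the brightness filter of 6.39, and whether these signals exceed background is not given in the sources used here. The WT call of PYCR3 held in all 21 alternatives run, with changes of -3.22 to -2.36. Among these, the mean of a gene's probe sets is no separate check for PYCR3. With 16 added to each signal before log2 the change was -2.40 (adjusted p = 0.000271). PYCR3 has 1 probe set here, so no other measures its change.

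PYCR1, the mitochondrial reductase, read 1056, 1717 and 1443 in the WT line with tetracycline, against 1017, 2295 and 1596 untreated, and 538, 520 and 406 in the mutant line, against 599, 467 and 505. The changes were -0.17 ± 0.26 (adjusted p = 0.694) and -0.10 ± 0.26 (adjusted p = 1), with groups that overlapped in both lines. ALDH18A1, the enzyme at the head of the branch, read 5115, 5811 and 5782 on 222416_at in the WT line with tetracycline, against 7579, 6188 and 5928 untreated. These ALDH18A1 groups did not overlap, but the change of -0.23 ± 0.12 did not pass (adjusted p = 0.202), and its other probe set gave -0.22 ± 0.14 (adjusted p = 0.294). ALDH18A1 in the mutant line gave -0.04 ± 0.12 and 0.01 ± 0.14 (adjusted p = 1 for both).

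**Figure D2:**
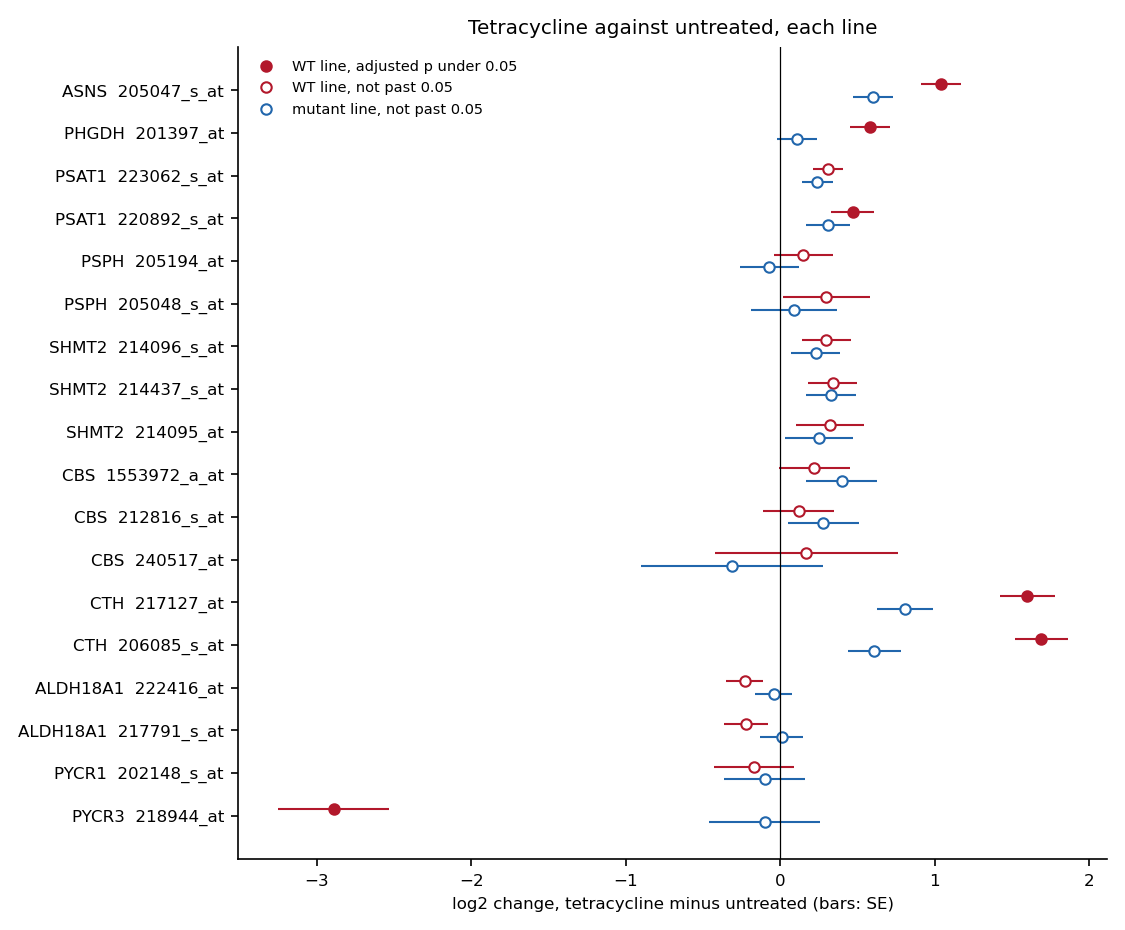
Log2 change (tetracycline minus untreated, bars are SE) of the 18 tested member probe sets in the WT line (red) and in the mutant line (blue), with filled points for an adjusted p under 0.05. The 6 filled points are all of the WT line, with CTH at 1.60 and 1.69 and PYCR3 at -2.89, while open mutant points of ASNS and CTH lie between 0.60 and 0.81.

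In the mutant line the same inducer, with the channel that lacks its kinase, gave 0 of 18 member probe sets past the threshold by limma, as it did for all 29553 probe sets. At an unadjusted p under 0.05 there were 5 of 18, against 2.1% of all probe sets, and these were ASNS, both CTH and both PSAT1 probe sets. The arrays with tetracycline lay above all untreated arrays for 7 of 18 (6.86% of all probe sets), the same 5 and SHMT2 probe sets 214096_s_at and 214437_s_at, and lay below them for 0 of 18 (6.39% of all). The median change of the 10 members was 0.17, against 0.02 over all tested genes. With limma array weights, which weigh each array by its own spread, ASNS (0.62) and CTH 217127_at (0.83) passed in the mutant line (adjusted p = 0.034 for both). Over all probe sets 4 passed in that fit. The main fit shared its spread with the WT line, which varied more. With only the mutant arrays in the fit, 0 of all probe sets passed. The limma adjusted p was then 0.0875 for CTH 217127_at, 0.234 for ASNS and 0.357 for CTH 206085_s_at.

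Whether the lines responded differently was tested as the difference of the changes, WT minus mutant. PYCR3 was the 1 of 18 probe sets that passed, lower, with -2.79 ± 0.51 (adjusted p = 0.0494), and 0 passed higher, where 0.0744% of all tested probe sets passed lower and 0.0643% higher. These shares rest on 41 calls, which became 0 without any 1 mutant array or WT tetracycline replicate 3, 1 without WT untreated replicate 3, 7 without WT tetracycline replicate 2 and 2702 without WT tetracycline replicate 1. That call is at the edge. It held in 2 of 12 refits that each left out 1 array, with adjusted p from 0.00118 to 0.17, and was lost without a filter (adjusted p = 0.0691), with quantile normalization (adjusted p = 0.0561), without a variance trend (adjusted p = 0.12), with a replicate block (adjusted p = 0.0553) and when replicate 3 of all groups was dropped (0.832).

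For CTH 206085_s_at the difference was 1.08 ± 0.25 (adjusted p = 0.0861, 95% interval 0.55 to 1.61) and did not pass. It passed without WT tetracycline replicate 1 (adjusted p = 0.0185) and with array weights (adjusted p = 0.00889). Over all probe sets 2702 and 2493 differences passed in those fits, against 41 in the main fit. For CTH 217127_at the difference was 0.79 ± 0.26 (adjusted p = 0.192, interval 0.24 to 1.34), and it passed with array weights (0.83, adjusted p = 0.0345). ASNS gave 0.44 ± 0.18 (adjusted p = 0.282, interval 0.05 to 0.83) and PHGDH 0.47 ± 0.18 (adjusted p = 0.243, interval 0.09 to 0.85). These intervals are not adjusted for the number of probe sets. PSAT1 gave 0.07 ± 0.15 (interval -0.24 to 0.39) on its brighter probe set and SHMT2 0.07 ± 0.22 (interval -0.40 to 0.55). None of these passed in the main fit, which does not show that the lines responded alike.

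The lines also differed before induction. Untreated, ASNS was 1.86-fold, PYCR1 2.98-fold and ALDH18A1 on 222416_at 1.65-fold higher in WT cells than in mutant cells, while PHGDH was 1.46-fold lower. Of the 18 probe sets 4 were higher and 2 lower in the WT line, where 4.19% of all tested probe sets were higher and 8.7% lower. With tetracycline 6 were higher and 3 lower, where 10.2% of all were higher and 17.3% lower. The 3807 calls over all probe sets between the untreated lines became 1644, 1621 and 2130 without mutant untreated replicate 1, 2 and 3. With tetracycline the 8151 calls became 5408 and 5216 without mutant tetracycline replicate 1 and 2. The beta-actin ratio given above moved with the line, and its part in these differences was not tested.

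The difference for PYCR1 was the widest of the 4 higher probe sets, with 1.57 ± 0.26 untreated (adjusted p = 0.00205), and its lowest untreated WT signal, 1017, lay above its highest untreated mutant signal, 599. With tetracycline it was 1.51 ± 0.26 (adjusted p = 0.00107). ASNS differed by 0.89 ± 0.13 untreated (adjusted p = 0.000914) and by 1.33 ± 0.13 with tetracycline (adjusted p = 3.82e-05), and its groups overlapped in neither comparison. PSAT1 was higher in the WT line on 223062_s_at, by 0.51 ± 0.10 (adjusted p = 0.00678) untreated and 0.58 ± 0.10 (adjusted p = 0.00136) with tetracycline, but its other probe set gave 0.14 ± 0.14 (adjusted p = 0.536) and 0.31 ± 0.14 (adjusted p = 0.102). With replicate 3 of all groups left out, the untreated PSAT1 call (adjusted p = 0.0731) and the PYCR1 call with tetracycline (0.0528) were lost, and the mean of the PSAT1 probe sets did not pass untreated (0.32, adjusted p = 0.0797).

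PHGDH passed between the lines untreated, -0.54 ± 0.13 (adjusted p = 0.0122), and not with tetracycline, -0.07 ± 0.13 (adjusted p = 0.694), a change in the difference that did not itself pass, as given above. This comparison and the WT induction share the untreated WT arrays, so they are not separate observations. The untreated call was lost when mutant untreated replicate 2 (adjusted p = 0.0655) or replicate 3 of all groups (0.0512) was left out. CTH gave the reverse order, with 0.20 ± 0.18 (adjusted p = 0.534) untreated and 0.98 ± 0.18 (adjusted p = 0.00176) with tetracycline. PYCR3 gave -0.70 ± 0.36 (adjusted p = 0.225) untreated and -3.49 ± 0.36 (adjusted p = 5.36e-05) with tetracycline, a size that rests on the dim WT signals of unknown detection.

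Between the lines, probe sets of PSPH, ALDH18A1, PSAT1 and CBS fell on both sides of the threshold. PSPH was lower in the WT line on 205048_s_at, with 249, 440 and 687 untreated, against 1054, 954 and 953 in the untreated mutant line, a difference of -1.22 ± 0.28 (adjusted p = 0.0118). The brighter PSPH probe set gave 0.06 ± 0.19 (adjusted p = 0.881). The untreated PSPH call was lost without mutant untreated replicate 1 (adjusted p = 0.0522). With tetracycline 205048_s_at was also lower in the WT line, by -1.02 ± 0.28 (adjusted p = 0.0154), and the brighter probe set gave 0.28 ± 0.19 (adjusted p = 0.3). How the PSPH call with tetracycline fared under the alternatives is not given here. ALDH18A1 was higher in the WT line on 222416_at, by 0.72 ± 0.12 (adjusted p = 0.00214) untreated and 0.53 ± 0.12 (adjusted p = 0.0055) with tetracycline, but 217791_s_at gave 0.10 ± 0.14 and -0.13 ± 0.14 and did not pass. CBS was lower in the WT line with tetracycline on 212816_s_at, by 0.74 on the log2 scale (SE 0.23, adjusted p = 0.0301), with 1435, 821 and 916 against 1597, 2063 and 1524. That CBS call was lost without WT tetracycline replicate 2 (adjusted p = 0.124) or 3 (0.0943), and without mutant tetracycline replicate 1 (0.0597) or 2 (0.124). A fit without a variance trend (0.0622) or without replicate 3 of all groups (0.112) lost it too.

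**Figure D3:**
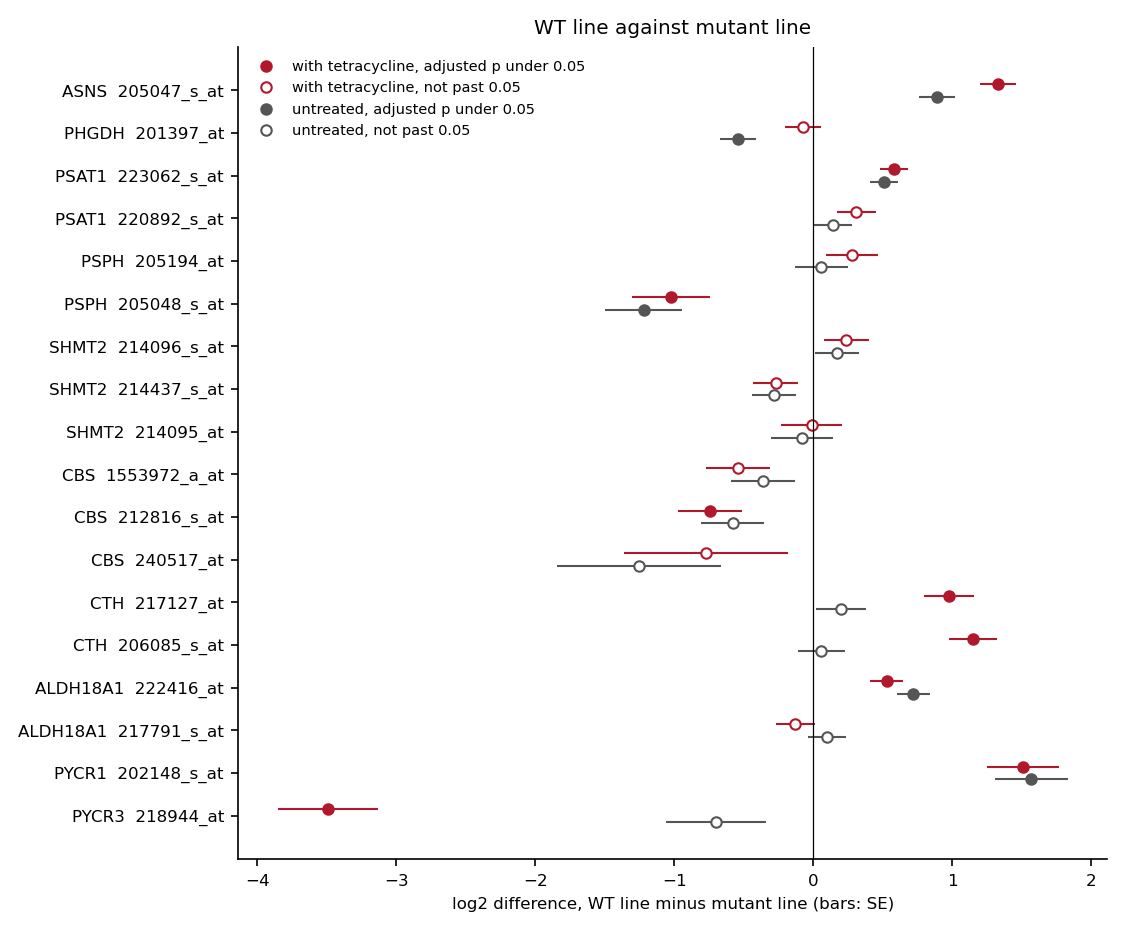
Log2 difference (WT line minus mutant line, bars are SE) of the 18 tested member probe sets with tetracycline (red) and untreated (grey), with filled points for an adjusted p under 0.05. ASNS and PYCR1 lie right of 0 in both conditions, CTH lies near 0 untreated and at 0.98 and 1.15 with tetracycline, and PYCR3 lies at -3.49 with tetracycline.

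Around these enzymes, 5 lists of neighbouring genes were counted, 74 genes in all, of which 61 were tested. In the WT line 14 rose and 9 fell, with a median of -0.03, where 9.4% of all tested genes rose and 8.55% fell. Of 14 tested genes of glycine and one-carbon metabolism 1 rose, 3 fell and 10 did not pass, with a median of -0.25. MTHFD2, the mitochondrial enzyme that takes up the one-carbon unit made by SHMT2, rose by 0.51 ± 0.11 (adjusted p = 0.00518). GCSH, a carrier of the glycine cleavage system, changed by -0.98 ± 0.13 (adjusted p = 0.000446) and GCAT, which handles a threonine product that yields glycine, by -0.64 ± 0.16 (adjusted p = 0.016). The GCAT call was lost without WT untreated replicate 3 (0.0589) or WT tetracycline replicate 2 (0.0642). Of the 9 alternatives other than leaving out 1 array, 2 lost the MTHFD2 call (adjusted p up to 0.129) and 2 the GCAT call (up to 0.176).

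Of 16 tested genes of the methionine cycle, transsulfuration and glutathione 3 rose and 2 fell, with a median of 0.07. CHAC1, which degrades glutathione and is a known ATF4 pathway target, rose by 2.05 ± 0.34 (adjusted p = 0.00151). GSS, the last enzyme of glutathione synthesis, changed by -0.79 ± 0.18 (adjusted p = 0.00843), and methionine synthase, MTR, by -0.54 ± 0.16 (adjusted p = 0.03). Of 10 tested genes of proline, ornithine and glutamate metabolism 2 rose and 2 fell. ARG2, the mitochondrial arginase, rose by 1.04 ± 0.14 (adjusted p = 0.000359), and P4HA2, a subunit of the enzyme that hydroxylates proline in collagen, rose by 0.86 ± 0.16 (adjusted p = 0.00298). OAT, which links ornithine to the proline precursor, changed by -0.37 ± 0.10 (adjusted p = 0.0185). The MTR call was lost without WT untreated replicate 2 (0.0506) or 3 (0.0955) or WT tetracycline replicate 3 (0.128), and the OAT call without WT untreated replicate 1 (0.0611) or WT tetracycline replicate 2 (0.0896). Of the 9 alternatives other than leaving out 1 array, 2 lost the GSS call (adjusted p up to 0.178) and 1 the P4HA2 call (0.0569). The MTR and OAT calls were each lost in 4 of these 9.

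Of 7 tested genes around asparagine and aspartate 2 rose and 0 fell. The aminotransferase GOT1, which makes aspartate, rose by 0.53 ± 0.17 (adjusted p = 0.0451), and NAGS, which makes the activator of the urea cycle, by 2.32 ± 0.65 (adjusted p = 0.0247). The GOT1 call held in 2 of 12 refits that left out 1 array (without WT untreated replicate 1 or WT tetracycline replicate 2), and the NAGS call in 8 of 12, being lost without WT untreated replicate 2 or 3 or WT tetracycline replicate 1 or 3. Among other alternatives the GOT1 call was lost in 5 of 9 and the NAGS call in 3 of 8. NAGS was not bright enough to be tested under the stricter filter of 8.92. The aspartate carrier SLC25A12 gave -0.56 ± 0.19 (adjusted p = 0.0559). Of 14 transcriptional and upstream regulators 6 rose and 2 fell, with a median of 0.46, and 6 of the 14 changes were negative. The 2 that fell are not among the regulators named here. ATF4 rose by 0.82 ± 0.12 (adjusted p = 0.000657) in the WT line and gave 0.31 ± 0.12 (adjusted p = 1) in the mutant line. Its partner CEBPB rose by 1.16 ± 0.15 (adjusted p = 0.000367) in the WT line. The difference between the lines did not pass for ATF4 or CEBPB. With 1 array left out it passed in 0 of 12 refits for ATF4 (limma adjusted p from 0.0904 to 0.38). For CEBPB it passed in 1 of 12 (0.028 to 0.247). ATF3, a stress-induced factor of the same family as ATF4, and DDIT3, a C/EBP relative induced by ATF4, rose by 2.03 ± 0.18 and 2.06 ± 0.19 in the WT line (adjusted p = 6.34e-05 for both). The difference between the lines was 1.42 ± 0.25 for ATF3 (adjusted p = 0.0485) and 1.81 ± 0.27 for DDIT3 (adjusted p = 0.0329). Each of these calls was lost in 9 of 12 refits that left out 1 array, namely any mutant array, WT tetracycline replicate 2 or 3 or WT untreated replicate 3 (adjusted p up to 0.157 and 0.155), and with replicate 3 of all groups left out (0.832). Of the 8 other alternatives, that last one among them, the ATF3 call was lost in 4 and the DDIT3 call in 2. The pseudokinase TRIB3, another ATF4 target, gave 0.62 ± 0.30 and did not pass (adjusted p = 0.17). Without WT untreated replicate 3 the calls were 15 of 61, and with only the 6 WT arrays in the fit 9 of the 61 genes passed, 7 higher and 2 lower. By limma, 0 of the 61 passed in the mutant line, with a median of 0.04.

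**Figure D4:**
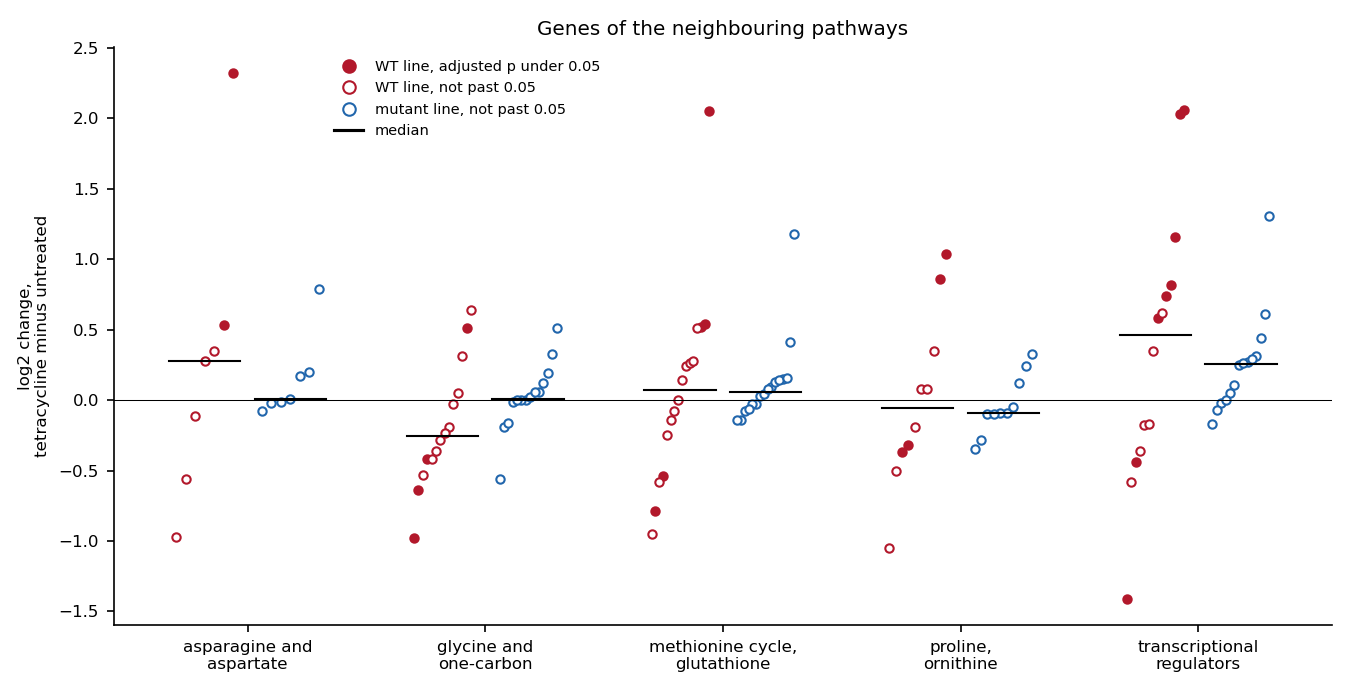
Log2 change (tetracycline minus untreated) of each tested gene of the 5 neighbouring lists in the WT line (red, left of each pair) and the mutant line (blue, right), with filled points for an adjusted p under 0.05 and black lines for medians. The regulators have the highest WT median, 0.46, and one-carbon genes the lowest, -0.25, while all mutant points are open.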

How the data were processed

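Total RNA of 12 samples in 4 groups was measured on Affymetrix arrays. The authors deposited linear intensity values per probe set, named MAS5 in the submitters' processing notes without version or settings. Signals under 1 (0.337% of values) were set to 1 and log2 was taken. Of 54675 probe sets, 62 controls were left out, and the 29553 whose highest group mean exceeded the median of all values, 6.39, were tested. Platform symbols were updated through gene IDs: 41097 probe sets carried 1 symbol and 1801 several. A gene was represented by its brightest tested probe set.

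All 12 arrays entered 1 model with a mean per group in limma 3.58.1 (R 4.3.3, eBayes with trend), without pairing, with Benjamini-Hochberg adjustment within each contrast, 2-sided. The spread was shared by all groups although the WT line varied more: with only the WT arrays in the fit 1223 probe sets passed in the WT line, against 5005. The fit was tested on simulated data. All 10 members were named, and up to 3 genes of each list with the smallest WT p, with ATF4, DDIT3 and TRIB3. Members and lists were chosen with earlier results of these data known. Figures used matplotlib 3.10.9. Alternatives were other filters, an offset of 16, quantile normalization, no variance trend, only the arrays compared, a replicate block, each array or all replicate 3 arrays left out, array weights, and the mean of a gene's probe sets. For ASNS, PHGDH, PYCR1 and PYCR3, with 1 tested probe set each, that mean is no separate check. Of the table's columns 0 were left out. The number of arrays limits the precision.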

Additional observations from a re-analysis of the deposited data

Results flagged for a closer look

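PYCR3 stands out because its responses to tetracycline differed between the lines by the test of the difference itself, -2.79 ± 0.51 (SE, limma adjusted p = 0.0494). The call was kept in 5 of 20 alternatives and in 2 of 12 refits that left out 1 array, and was lost with a replicate block (adjusted p = 0.0553). Of those 5, the mean of a gene's probe sets is no separate check, since PYCR3 has 1 probe set. The WT signals with tetracycline averaged 5.04 on the log2 scale, below the filter of 6.39, and their detection is unknown. Its 3 WT arrays with tetracycline read 51.0, 28.7 and 24.2 and its 3 untreated WT arrays 246, 157 and 375, while the mutant arrays read 256, 443 and 443 with tetracycline and 372, 474 and 350 untreated.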

How the results depend on the processing

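Of 1085 values of single members under the alternatives, 1017 kept their direction and side of the threshold, 24 lost a call, 10 gained one and 34 changed sign. None of the 34 was past the threshold before or after. With a replicate block the called member probe sets were 7 (WT induction), 0 (mutant), 0 (difference), 6 (untreated lines) and 9 (lines with tetracycline), against 6, 0, 1, 6 and 9 without it. Over all probe sets the calls were 5725, 0, 76, 4516 and 8993 with the block, against 5005, 0, 41, 3807 and 8151. Deviations of same-numbered arrays correlated at 0.03 to 0.25 in the 6 pairs within a line, 4 of them over 0.1, and at -0.01 to 0.08 in the 12 pairs across lines. Since not every pair was over 0.1, the main fit has no block, but 8 of 12 arrays correlated best with their own number, a hint of pairing within a line. The replicate block gave both lines the same replicate effects, so pairing within each line on its own was not modelled. With 1 array left out the counts were 5 to 7, 0 to 0, 0 to 2, 5 to 7 and 8 to 10. The difference had 0 calls without a filter, with the stricter filter at the 75th percentile (which left PYCR3 untested), with quantile normalization, without trend and without the replicate 3 arrays, and 3 with array weights. Over all probe sets the difference calls in those fits were 8, 89, 15, 6, 0 and 2493, against 41 in the main fit. Array weights gave 2 member calls in the mutant line, where 4 of all probe sets passed. Leaving out the replicate 3 arrays gave 4 (WT induction), 4 (untreated lines) and 5 (lines with tetracycline), and only the WT arrays gave 4 for the WT induction. Over all probe sets these fits gave 541, 1717 and 2771 calls, and 1223 with only the WT arrays. Neighbouring genes called in the WT line were 23, against 15 without trend, 9 with only the WT arrays, 7 without the replicate 3 arrays and 15 to 30 with 1 array left out. Over all probe sets the WT calls were 5005, against 8077 without WT tetracycline replicate 1, 2744 without replicate 2, 2842 without replicate 3 and 3295 without WT untreated replicate 3, and 541 without the replicate 3 arrays of all groups. The difference of inductions uses all arrays, so no fit of only the arrays compared exists for it.

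Values that changed sign were PSPH with the mean of its probe sets (mutant 0.01, untreated lines -0.58, lines with tetracycline -0.37), SHMT2 with that mean (-0.06 and -0.01 between the lines) and with array weights (difference -0.14), and CBS with array weights (WT -0.13), with the mean (difference 0.05) and without the replicate 3 arrays (difference 0.04). PYCR1 with array weights gave 0.01 (WT) and 0.07 (difference), and 0.00 in the mutant line without the replicate 3 arrays. With 1 array left out the ranges that crossed 0 were -0.14 to 0.03 for PHGDH between the lines with tetracycline, -0.03 to 0.14 for PSAT1 (difference), and for PSPH -0.08 to 0.27 (WT), -0.23 to 0.01 (mutant), -0.00 to 0.38 (difference) and -0.06 to 0.28 (untreated lines). They were -0.12 to 0.26 for SHMT2 and -0.40 to 0.05 for CBS (difference), -0.08 to 0.01 for ALDH18A1 and -0.23 to 0.16 for PYCR3 (mutant), and for PYCR1 -0.47 to 0.11 (WT), -0.18 to 0.02 (mutant) and -0.37 to 0.22 (difference). The cause was not tested. Between the untreated lines the median over all tested probe sets was -0.092 as deposited and 0.014 after quantile normalization. No member call between the untreated lines was lost or gained by it. Dim signals limit PYCR3.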
